A study of Mus musculus with 6 samples.

Results

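Olfactory ensheathing cells (OECs) are glia that wrap the axons of olfactory sensory neurons on their way from the nasal epithelium into the olfactory bulb. They arise from the neural crest and carry the transcription factor Sox10, and they are known for secreting growth factors and for accompanying the axons that are renewed throughout life. In the bulb they lie in the outer nerve layer, where they do not form compact myelin.

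Here the OEC cluster that the study called OEC3 was examined in dissociated mouse olfactory bulb. It held 3436 of the 51426 cells to which the deposited annotation gave a cluster, and it was the largest of the 5 OEC clusters, which together held 11551 cells. Members were taken from the annotation's cluster column, which the study had made from these same counts. The annotation numbers the OEC clusters differently from the study: the cells called OEC3 here carry the name OEC4 in the annotation. This match was made because the number of cells per library was identical for each of the 5 clusters under it, and because 10 of 10 genes listed by the study for OEC3 were highest in these cells among all 38 clusters. For OEC1, OEC2, OEC4 and OEC5 that held for 8, 0, 1 and 3 of 10 listed genes. Among the 5 OEC clusters alone it held for 10, 4, 1 and 4, so that the match of OEC2, OEC4 and OEC5 rests mainly on cell numbers. The other OEC clusters are likewise named as in the study, so that OEC2 is annotated OEC5, OEC4 is annotated OEC3 and OEC5 is annotated OEC2. Clusters of other cell types, such as Astro1, keep their names in the annotation, which were not matched to the study.

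The bulbs came from adult C57BL/6NJ mice that were 14 weeks old, and 6 libraries of single cells were made. There were 2 control libraries from mice with no manipulation, 2 from mice deprived of odour input by naris occlusion (a plug in 1 nostril) and 2 from mice trained on an odour discrimination task, which were deprived of water for it. Animals were pooled for a library, and mice of both sexes were used, with the sex behind each library not given in the labels. The labels gave the control mice as not manipulated, whereas the study's text also named the open side as a control, and which tissue the control libraries held was taken from the labels. OEC3 gave 585 and 498 cells from control, 573 and 702 from naris occluded and 602 and 476 from trained mice, replicate 1 first, as in all pairs of values below. Transcripts were counted as unique molecular identifiers (UMIs), and levels below are in CPM, that is, scaled to a fixed total of UMIs, of the counts summed over the cells of a cluster in a library.

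The OEC3 sums held 1090398 to 1609901 UMIs per library, and the median cell held 1950.5 to 2626 UMIs and 1000.5 to 1252 genes. OEC4 stood apart from the other OEC clusters, with a median of 817 UMIs per cell against 2116.5 in OEC3 and a median of 18.6% of UMIs from mitochondrially encoded genes against 9.58%. Trained replicate 1 stood apart among the libraries over all cells (median 1028 UMIs per cell, 14.4% of them mitochondrial), while its OEC3 cells had 1950.5 UMIs and 10.3%. Any pair of libraries shared 65 to 144 cell barcodes over all cells and at most 1 among OEC3 cells. Xist was at 0 CPM in OEC3 of all replicate 1 libraries and at 1829 to 1832 CPM in replicate 2, and Ddx3y, on the Y chromosome, was at 64.2 to 76.4 CPM and 0 CPM respectively.

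The OEC label was set beside OEC genes. The study had named the OEC clusters by Sox10 from these same counts. The gene list was chosen with earlier results of these data and the study's list of cluster genes known. What follows is therefore a description and not an independent check. Sox10 was at 234 and 231 CPM in control, 239 and 267 in naris occluded and 265 and 283 in trained libraries, a mean of 253 ± 21.4 CPM (SD, n = 6 libraries over all conditions, as for every SD below unless stated). OEC3 ranked sixth of 38 clusters for Sox10, near OEC1, OEC2 and OEC5 at 298, 280 and 279 CPM and above OEC4 at 174 CPM. Npy, which encodes neuropeptide Y, was at 19515 to 21438 CPM in OEC3, against means of 3870 in OEC1, 13471 in OEC2, 11065 in OEC4 and 11531 in OEC5. Pleiotrophin (Ptn, a heparin-binding growth factor) reached 33718 ± 1170 CPM and the lipid carrier Apod 12754 ± 1290 CPM. Of 16 listed OEC genes, 14 reached 10 CPM in an OEC cluster, and 6 of them, with Apod, Frzb, Npy, Ptn and Serpine2 among these, were highest in OEC3 of the 5 OEC clusters in all 6 libraries. The same held for 184 of 9580 genes, or 1.92%, of all genes at that level. Of the 14, 6 had their highest level of all 38 clusters in OEC3, as 1.83% of all genes did. Of the markers of other types, by their means over the 6 libraries all 7 mesenchymal, 6 of 7 oligodendrocyte precursor, 6 of 7 mural, 5 of 8 oligodendrocyte, 3 of 9 microglial and 3 of 7 endothelial genes stayed under 10 CPM, whereas all 8 astrocyte genes and all 8 neuron genes passed 10 CPM and summed to 1987 to 2359 CPM and 335 to 555 CPM. Few genes under 10 CPM did not mean a low sum. The mural list summed to 1587 to 2459 CPM, with Vtn its only gene above 10 CPM. Oligodendrocyte genes summed to 989 to 1273 CPM, microglial genes to 225 to 340 CPM and endothelial genes to 250 to 370 CPM. Precursor and mesenchymal genes summed to 50.8 to 65.1 CPM and 8.81 to 17.8 CPM.

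Because clusters were made from the same counts, differences between clusters are described here without tests. OEC3 differed most from OEC1. Among genes with at least 50 CPM in either cluster, 121 were at least 2-fold higher and 178 at least 2-fold lower in OEC3 than in OEC1 in all 6 libraries. Against OEC2 these numbers were 4 and 37, against OEC4 41 and 12, and against OEC5 44 and 33. Of the 37 genes lower than in OEC2, 12 were immediate early genes such as Fos (59.4 CPM in OEC3 and 1976 in OEC2). The 4 higher genes were Ccdc80, Fam212b, Grin3a and Igf1.

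Only Ccdc80 and Igf1 were at least 2-fold higher in OEC3 than in every other OEC cluster in each of the 6 libraries, 2 of 2817 genes with at least 50 CPM in OEC3 (0.071%). More genes passed by the mean over libraries alone or without control replicate 2, as given at the end. Ccdc80 encodes a secreted protein of the extracellular matrix. It was at 248 and 226 CPM in control, 269 and 275 in naris occluded and 212 and 297 in trained libraries, with means of 3.42 in OEC1 and 101, 70.1 and 67.3 in OEC2, OEC4 and OEC5. Igf1, insulin-like growth factor 1, was at 733, 683, 690, 675, 563 and 724 CPM in the same order of libraries. Its mean of 678 ± 60.8 CPM in OEC3 was 2.48 times that of OEC5, the next highest at 274 CPM, and OEC1 was lowest at 52.9 CPM. The lowest OEC3 library lay above every library of the other OEC clusters for both genes, which the plot of levels per library shows.

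**Figure D1:**
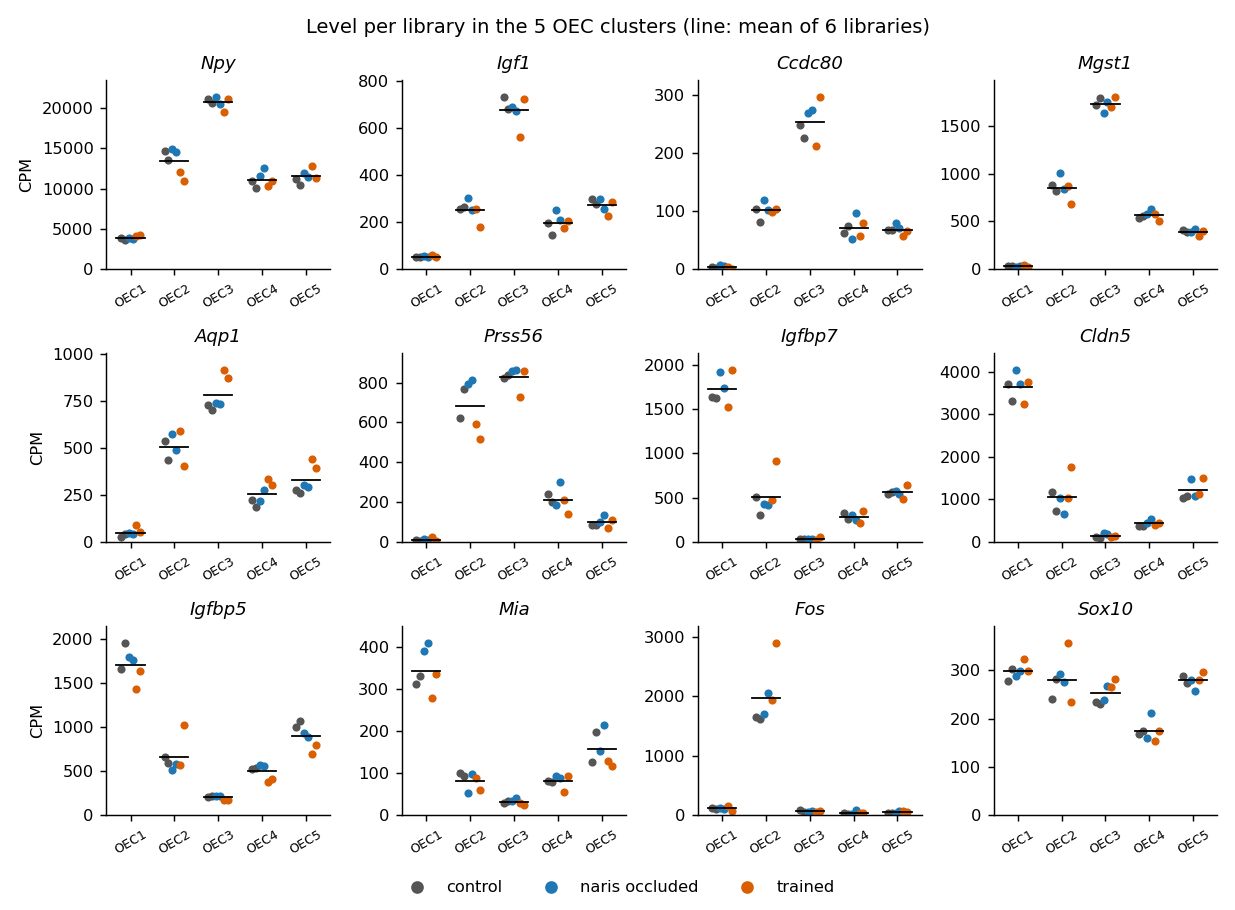
Level in CPM (vertical axis, linear from 0) of 12 genes in each of the 5 OEC clusters, with 1 point per library coloured by condition and a line at the mean of the 6 libraries. Igf1, Ccdc80, Mgst1, Aqp1 and Npy sat highest in OEC3 in all libraries (mean 20739 CPM for Npy), Igfbp7, Igfbp5, Cldn5 and Mia sat lowest, Fos was high in OEC2, and Sox10 was present in all 5 clusters.

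The 20 genes with the largest ratio of the OEC3 mean to the highest other OEC mean were led by these genes. In 14 of the 20 the next highest cluster was OEC2, and in 19 of the 20 the lowest was OEC1. OEC3 was highest in every library for 19 of the 20. The exception was Hba-a1, a hemoglobin gene of red blood cells, which ranged from 7.05 to 181 CPM between libraries and is taken up with the conditions. Nkd2, a feedback inhibitor of Wnt signalling, was at 127 ± 17.9 CPM (61.1 in OEC2, 5.85 in OEC1), the R-spondin receptor Lgr6 at 95.4 ± 11.9 CPM (50.8 and 6.64) and Tsku, a secreted protein, at 72.3 ± 22.1 CPM (32.5 and 3.94). The ion channel genes Kcnc1 and Grin3a, coding for a voltage-gated potassium channel and an NMDA receptor subunit, were at 111 and 212 CPM. The homeobox gene Msx2 was at 62.0 CPM against 29.3 in OEC2, and the cytochrome P450 gene Cyp1b1 at 150 CPM against 77.3. The rest of the 20 were Dapl1, Fgfbp3, Tmem100, Gdpd4, Fam212b, Sdpr, Baiap2, Elovl7, Mgst1 and Cpe, at ratios of 1.79 to 2.48. At the edge of the list Elovl7, the last one in, had a ratio of 1.79 and a mean of 84.6 CPM.

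Secreted factors and their binding proteins did not move as a group. Of 14 secreted growth and guidance factors that reached 10 CPM, 4 (Igf1, Npy, Ptn and Rspo1) were highest in OEC3 in all libraries, and 2 (Mia and the axon guidance factor Ntn1) were lowest, against 1.92% and 1.33% of all genes. These shares of all genes are also the ones to set beside the counts of the lists below. Rspo1, an activator of Wnt signalling, was at 30.3 to 44.9 CPM in OEC3 and at 16.7 CPM in OEC2, and its mean in each of OEC1, OEC4 and OEC5 was under 6 CPM. Ntn1 was at 2.87 CPM in OEC3 and 88.8 in OEC1. The neurotrophic factors Bdnf, Ntf3 and Gdnf were each under 1 CPM in OEC3.

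Of the insulin-like growth factor binding proteins, Igfbp5 and Igfbp7 were lowest in OEC3 and the others were not. Igfbp7 was at 36.4 and 32.1 CPM in control, 32.3 and 27.8 in naris occluded and 24.8 and 50.2 in trained libraries of OEC3. Its mean of 33.9 ± 8.94 CPM was 0.12 times that of OEC4, the next lowest at 282 CPM, while OEC1 was at 1730 CPM. Igfbp5 was at 199 ± 24.2 CPM, against 494 to 1703 CPM in the others. Igfbp4 was at 236 CPM in OEC3 and 217 in OEC4, Igfbp2 was at 20 CPM in OEC3 against 15.8 to 43.8 CPM, and the receptor gene Igf1r was at 29.1 to 34.4 CPM in all 5 clusters. Of the 9 genes of this family, Igf1 was the 1 that was highest in OEC3 and Igfbp5 and Igfbp7 were the 2 that were lowest in every library.

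Only 5 of 2293 genes with at least 50 CPM in every other OEC cluster (0.218%) were at most 0.5 times the lowest of them in OEC3 in each library, namely Acsbg1, Cldn5, Egfl8, Igfbp5 and Igfbp7. With OEC4 left out Bgn, Plekha4 and Tspan18 passed too, and in cells with at least 1000 UMIs fewer genes passed. Cldn5 codes for claudin 5, a tight junction protein best known from brain endothelium. It was at 97.2 to 201 CPM in OEC3, against means of 3630 in OEC1, 1066 in OEC2, 435 in OEC4 and 1215 in OEC5. Acsbg1, a fatty acid activating enzyme, was at 53.4 ± 9.62 CPM, against 187 to 781 CPM. Mia, a small secreted protein, was at 31.0 ± 5.19 CPM, against 80.8 to 342 CPM. The other genes among the 10 lowest by this ratio were Thrsp, the transporter gene Abca8a, the matrix proteoglycan gene Bgn and the cell cycle inhibitor gene Cdkn2c. OEC3 was lowest in every library for all 10, and OEC1 was highest for all 10.

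The genes of the Wnt list, which holds none of Nkd2, Lgr6 and Tsku, were mixed. Lef1, a transcription factor that acts in Wnt signalling, was at 131 ± 22.7 CPM in OEC3 and 75.3 CPM in OEC2, and its target Axin2 was at 45.1 ± 10.2 CPM and 31.7 CPM. The secreted inhibitor Frzb was highest in OEC3 at 1733 ± 115 CPM, but OEC5 was near at 1554 CPM. Another secreted inhibitor, Sfrp5, was lowest at 12.3 ± 2.74 CPM, against 36.9 to 213 CPM in the others. Of 7 listed Wnt ligands, inhibitors and targets that reached 10 CPM, only Frzb and Sfrp5 held their place in all 6 libraries. Of 11 Notch pathway genes, only Hey1, at 28.8 CPM against 14 to 16.2, was highest throughout.

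Genes of glutathione and redox metabolism were split. Mgst1, the microsomal glutathione S-transferase, was at 1722 and 1800 CPM in control, 1636 and 1756 in naris occluded and 1702 and 1809 in trained libraries, and its mean was 853 CPM in OEC2, 563 in OEC4, 393 in OEC5 and 30 in OEC1. It varied little between libraries (SD 65 CPM). Fam213a (1156 CPM) and thioredoxin, Txn1 (556 CPM), were also highest in all libraries. Gstm1, Gstm5, Prdx5 and Prdx6 were lowest in all libraries, with Gstm1 at 183 CPM against 268 to 607 CPM. Over the 24 listed genes that reached 10 CPM the median log2 ratio of OEC3 to the mean of the others was -0.07, against -0.06 over all 9580 genes.

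Among water, ion and gap junction genes the aquaporin Aqp1, a water channel, was at 783 ± 88.8 CPM, against 505 in OEC2, 328 in OEC5, 258 in OEC4 and 49.2 in OEC1. The connexin Gjb2 was at 157 ± 16.8 CPM against 90.9 in OEC2. Fxyd1, a regulator of the sodium pump, was lowest at 1190 CPM against 1510 to 3527 CPM. These 3 were the ones of 18 listed genes that held their place in every library, 2 highest and 1 lowest. Aqp4, the water channel of astrocytes, was at 12.2 CPM.

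Proteases and their inhibitors gave 5 of 19 genes highest in OEC3 in all libraries (Cpe, Plat, Prss56, Qpct and Serpine2). Another 3 were lowest (Adamts5, Mmp17 and Serping1). Over all genes 1.92% were highest and 1.33% lowest in this way. Prss56, a serine protease, was at 822, 841, 860, 864, 729 and 860 CPM in the order control, naris occluded and trained, with a mean of 829 ± 51.7 CPM. OEC2 was close at 685 CPM, while OEC4, OEC5 and OEC1 were at 213, 97.9 and 11.1 CPM. Carboxypeptidase E (Cpe), which processes neuropeptides, was at 2062 ± 91.3 CPM against 1107 in OEC2, and tissue plasminogen activator (Plat) was at 525 ± 50.8 CPM against 336 in OEC2. The complement inhibitor Serping1 was at 2.08 CPM against 82.0 in OEC1.

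Lipid, matrix and transcription factor genes went both ways. Over all genes 1.92% were highest and 1.33% lowest in OEC3 in every library. Among 16 lipid genes Apod and Scd2 were highest in all libraries, genes such as Abca8a, Acsbg1, Dbi and Scd1 were lowest in all of them, and Apoe, the most abundant of them at 32527 ± 3240 CPM, was near the level of OEC2 at 32464 CPM. Of 18 matrix genes Lama2, Sparc and Sparcl1 were highest and Bgn lowest. Among 17 transcription factors Lmo4 (1233 ± 69.8 CPM against 911 in OEC2) and Tcf4 were highest and Sox9 (7.12 CPM against 16.3 to 65.0) and Zeb2 lowest. Of 16 cholesterol genes only Hmgcs1 was highest throughout. None of 15 adhesion genes or 7 genes of serine and glutamine synthesis held the highest or lowest place in all libraries.

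Interferon-stimulated genes were low in OEC3. Of 16 that reached 10 CPM, 10 had their lowest mean in OEC3, 4 (Bst2, Ifitm2, Ifitm3 and Lgals3bp) in every library, and none had its highest there. Over all 9580 genes the mean was lowest in OEC3 for 1782 genes and highest for 1225. The membrane protein gene Ifitm3 was at 366 to 549 CPM in OEC3, against means of 1869 in OEC1, 1250 in OEC5, 910 in OEC2 and 735 in OEC4. For genes of MHC class I presentation 7 of 10 means were lowest in OEC3, none in every library, with B2m at 446 CPM against 506 to 856 CPM. Stress response genes were mixed, and Nupr1, a stress-induced nuclear protein gene, was highest at 691 ± 74.8 CPM against 425 in OEC2 and 42.2 in OEC1, as was Sat1 at 904 CPM, while the small heat shock protein gene Cryab was lowest at 361 CPM. None of the 13 mitochondrially encoded genes was highest in OEC3, and mt-Co1 was lowest in all libraries. Immediate early genes had a median log2 ratio of -1.65, and none of 16 was highest in OEC3. This mean includes OEC2, where these genes are high. Only 1 of the 16 had its lowest mean in OEC3, and Fos was at 59.4 CPM there against 36.9 in OEC4, 46.2 in OEC5 and 111 in OEC1.

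The shares of single OEC3 cells carrying a transcript were compared at equal depth by thinning each cell to 1000 UMIs, which left out 281 of the 3436 cells. It left out 2217 of the 3240 cells of OEC4, so that the shares of that cluster rest on its 1023 deepest cells. Mgst1 was found in 77% of the thinned cells (95% Wilson interval 75.5 to 78.4%), Aqp1 in 51.7%, Prss56 in 51.1%, Igf1 in 45.6% and Ccdc80 in 20.2%. Without thinning these shares were 91.5%, 74.2%, 71.8%, 68.4% and 37.2%. In microglia, which had a median of 1719 UMIs against 2116.5 in OEC3, and which are known to make Igf1 in some states but are not known for the others, the thinned shares were 2.49%, 0.755%, 0.689%, 1.08% and 0.427%. In OEC2 they were 43.7%, 29.2%, 35.8%, 18.1% and 9.17%, and all 5 were higher in OEC3. Intervals cover counting error only.

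Igfbp7 was found in 2.95% of thinned OEC3 cells (6.32% without thinning), close to the 1.94% of microglia, and Mia in 2.54%, with 0.295% in microglia. Cldn5 was found in 9.64% (16.3% without thinning), against 91.2% in OEC1, 50.7% in OEC5 and 3.74% in microglia. Npy was found in 100.0% of OEC3 cells, but also in 22.2% of microglia, and the source of these transcripts was not tested. Sox10 was found in 22.1% of thinned OEC3 cells and in 0.689% of microglia.

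**Figure D2:**
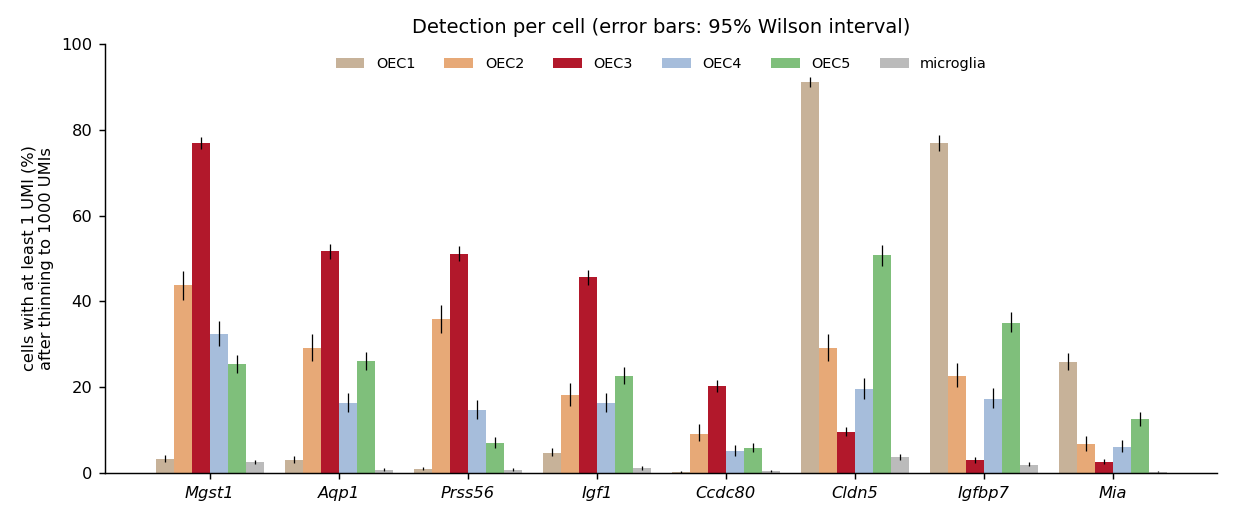
Share of cells with at least 1 UMI of a gene (vertical axis, percent) after thinning each cell to 1000 UMIs, for 8 genes in the 5 OEC clusters and in microglia, with 95% Wilson intervals. OEC3 was highest for Mgst1 (77%), Aqp1, Prss56, Igf1 and Ccdc80 and lowest of the OEC clusters for Cldn5 (9.64%), Igfbp7 and Mia.

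Within OEC3 the detection of these genes was only weakly associated from cell to cell. Of the thinned cells 11.1% carried all 4 of Mgst1, Aqp1, Prss56 and Igf1, 30.6% carried 3, 34.5% carried 2, 20.0% carried 1 and 3.71% carried 0. Aqp1 was found in 54.0% of cells with Prss56 and in 49.2% of cells without it. Over the pairs of genes examined, which also took in Il13ra2, Ccdc80 and Cldn5, the phi coefficient lay between -0.0288 and 0.0725. Associations this weak in sparse counts are no finding.

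The share of OEC3 among all annotated cells was 5.85% and 6.46% in control, 7.86% and 7.67% in naris occluded and 5.70% and 7.10% in trained libraries. Both occluded libraries lay above the other 4, whereas control and trained libraries overlapped. The edgeR quasi-likelihood test on cell numbers gave a log2 difference of 0.34 ± 0.24 (SE) for naris occluded against control (adjusted p = 0.525 over 38 clusters, 2.63% of which were called), 0.05 ± 0.24 for trained against control (adjusted p = 0.865, 0% called, and 3 of 38 with an unadjusted p under 0.05) and -0.28 ± 0.24 for trained against naris occluded (adjusted p = 0.425, 21.1% called). An exact two-sided permutation test of 2 against 2 libraries cannot give a p below 0.333, and naris occluded against control gave 0.333. Among OEC cells alone the share was 27.3% and 28.1% in control, 30.6% and 30.8% in naris occluded and 31.1% and 30.7% in trained libraries. With OEC cells as the denominator trained against control was 0.16 ± 0.03 (edgeR, adjusted p = 0.0498) and naris occluded against control was 0.15 ± 0.03 (adjusted p = 0.059), values on either side of the threshold for differences of nearly the same size. The Wilson intervals of these shares, which cover counting error only, were 25.5 to 29.2% and 26.1 to 30.3% in control. They overlapped those of trained (29.0 to 33.2% and 28.5 to 33.1%) and naris occluded libraries (28.5 to 32.7% and 28.9 to 32.7%). An SE of 0.03 is small beside these intervals, and no difference is read from these p-values. Dissociation loses cells, and a share cannot tell more OEC3 cells from fewer cells of other types.

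**Figure D3:**
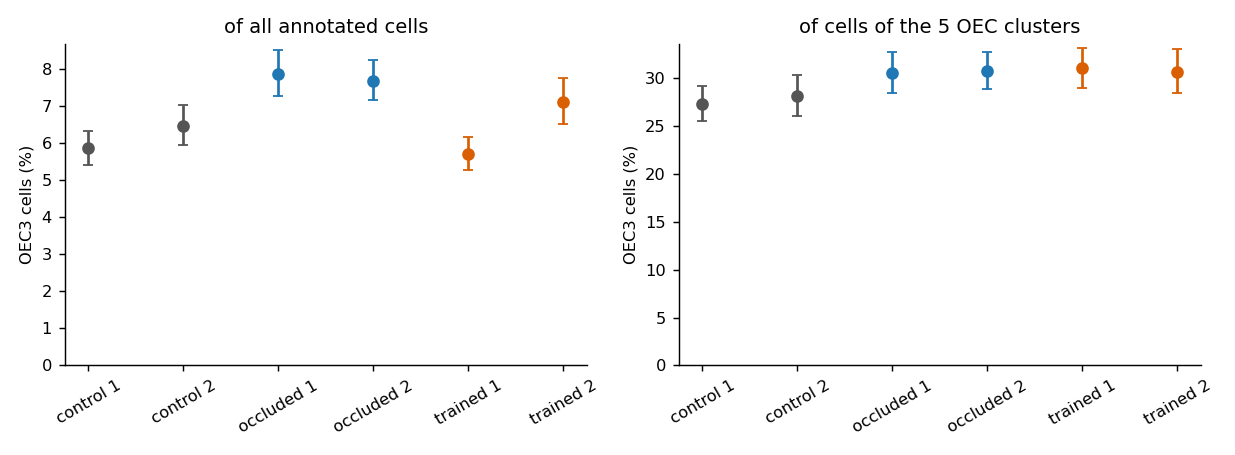
Share of OEC3 cells (vertical axis, percent, from 0) in each of the 6 libraries, of all annotated cells on the left and of the cells of the 5 OEC clusters on the right, with 95% Wilson intervals. Of all cells both naris occluded libraries (7.86% and 7.67%) lay above the others, and of OEC cells both control libraries (27.3% and 28.1%) lay lowest.

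Next the OEC3 transcriptome was compared between conditions, with counts summed per library, 9711 genes tested by the edgeR quasi-likelihood test and a Benjamini-Hochberg adjusted p under 0.05 as the threshold. The DESeq2 Wald test was an alternative. In each comparison it gave less than a share of 0.05 of the genes an unadjusted p under 0.05. It was thus strict in these data, and a missing call in it decides little. The edgeR test also stayed under a share of 0.05 for naris occluded against control, with 415 of 9711 genes. In the other comparisons edgeR lay above that share. The replicates are pools of mice, and since Xist and Ddx3y differed by replicate number in every condition, the spread between replicates cannot be told apart from a difference between sexes. After naris occlusion 2 genes were called (0.0206%), 1 higher (0.0103%) and 1 lower (0.0103%), and both kept their groups apart, as 33.6% of all tested genes did, while 415 had an unadjusted p under 0.05. S100a5, a calcium-binding protein made by olfactory sensory neurons, was at 541 and 601 CPM in control, 193 and 162 in naris occluded and 638 and 329 in trained libraries. Both occluded libraries lay below the other 4. The log2 fold change was -1.70 ± 0.17 (SE, edgeR adjusted p = 6.52e-08). It passed the threshold without any single library, but not in the DESeq2 Wald test (adjusted p = 0.182), which called 0 genes in this comparison, with 57 at an unadjusted p under 0.05.

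S100a5 was also lower in both occluded libraries of cells that are not OECs. The ratio of the naris occluded to the control mean was 0.312 in OEC3, 0.291 in the other OEC clusters together, 0.266 in microglia, 0.313 in endothelial cells and 0.299 in the annotation's astrocyte cluster Astro1. It was 0.46 in the sensory neuron cluster, where the level was 27958 and 25395 CPM in control and 14665 and 9865 CPM in naris occluded libraries. The number of S100a5 transcripts per transcript of Gng13, another sensory neuron gene, was 1.60 and 1.79 in control and 0.72 and 0.404 in naris occluded libraries in OEC3, and 1.67, 1.33, 0.799 and 0.405 in the sensory neuron cluster. The summed level of the 7 sensory neuron markers, S100a5 included, in OEC3 was 911 and 964 CPM in control, 489 and 599 in naris occluded and 1155 and 593 in trained libraries, and Gnal, Stoml3, Cnga2 and Rtp1 had means under 10 CPM, with Stoml3 at 4.41 to 18.6 CPM by library. S100a5 made up most of the difference in this sum, and the ratio of naris occluded to control means in OEC3 was 0.991 for Gng13 (338 and 336 against 268 and 401 CPM), 1.08 for Omp and 0.994 for Stoml3. The ratios below are for the other OEC clusters together, microglia, endothelial cells and Astro1, in this order. Gng13 was at 0.77, 0.77, 0.861 and 0.791, Omp at 0.684, 0.726, 0.69 and 0.649, and Stoml3 at 0.791, 0.946, 1.57 and 0.789. The test of the difference between OEC3 and the other OEC clusters gave 0.11 ± 0.11 for S100a5 (edgeR adjusted p = 0.975). The part of transcripts from sensory neurons in this result was not tested further.

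Cldn5 was among the genes that were lowest in OEC3 of the OEC clusters. It was at 120 and 97.2 CPM in control, 201 and 180 in naris occluded and 111 and 135 in trained libraries. Both occluded libraries lay above the other 4. The log2 fold change was 0.78 ± 0.14 (SE, edgeR adjusted p = 0.0115). The adjusted p was 0.981 without control replicate 2, 0.0828 without naris occluded replicate 1 and 0.675 in DESeq2. The ratio of occluded to control means was 1.74 in OEC3, 1.1 in OEC1, 0.881 in OEC2, 1.32 in OEC4, 1.22 in OEC5, 1.08 in endothelial cells and 0.958 in Astro1. Both genes also kept their groups apart in the other OEC clusters together (20.6% of all tested genes). The occlusion effect differed between OEC3 and these clusters in 5 of 11048 genes (0.0453%), and in 3 with replicate as a block, among them Cldn5, for which it was larger in OEC3 by 0.58 ± 0.12 on the log2 scale (edgeR interaction test, adjusted p = 0.0134), but it was 0.50 with an adjusted p of 0.228 against OEC5 alone, and the adjusted p was 0.066 to 0.245 without any one of the control or occluded libraries. The 7 endothelial markers, Cldn5 included, summed to 270 and 250 CPM in control, 336 and 370 in naris occluded and 258 and 272 in trained libraries, with Flt1, Slco1c1 and Emcn under 10 CPM in each library. This sum was highest in both occluded libraries, but it counts Cldn5 again. Of 5 tested endothelial markers, Cldn5 was the only 1 with an unadjusted p under 0.05 (edgeR, naris occluded against control). The median log2 fold change of these 5 was 0.21, against -0.01 over all genes. The part of endothelial transcripts in the Cldn5 result was not tested.

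After training 24 genes were called against control (0.247%), 17 higher (0.175%) and 7 lower (0.0721%), with 589 at an unadjusted p under 0.05. All 24 differed the same way in both replicate numbers, and for 23 of them, all but Hba-a1, the groups did not overlap, against 35.2% of all tested genes. The number fell without either control library and without trained replicate 1. Each of these fits leaves 1 library, and so 1 replicate number, in a group. It therefore cannot show whether the calls rest on the library left out. The DESeq2 Wald test called 1 gene, Cirbp, with 113 at an unadjusted p under 0.05. With replicate as a block 24 genes were called, 23 of them shared, and Malat1 was not among these (adjusted p = 0.606).

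Hspa8, the constitutive heat shock protein 70, was at 552 and 507 CPM in control, 507 and 573 in naris occluded and 1100 and 745 in trained libraries. Both trained libraries lay above all others, replicate 1 far more than replicate 2. The log2 fold change was 0.78 ± 0.14 (edgeR adjusted p = 0.00268), and it was 0.48 with an adjusted p of 0.416 without trained replicate 1. The adjusted p was 0.21 without control replicate 1 and 0.299 without control replicate 2. Ahsa2, an activator of heat shock protein 90, rose by 1.75 ± 0.31, the heat shock protein 40 gene Dnaja1 by 0.56 ± 0.13 and the collagen chaperone gene Serpinh1 by 0.68 ± 0.16. Of 14 tested stress response genes 2 were higher, against 0.175% of all tested genes, Hspa8 and the metallothionein gene Mt1 (1602 and 1477 CPM in control, 2436 and 2084 in trained libraries), and the median log2 fold change of the 14 was 0.22, against 0 over all genes. Hsph1, an inducible heat shock gene, did not pass. It was at 25, 19.3, 18.6, 29.8, 65.8 and 22.9 CPM, with only trained replicate 1 high.

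Tsc22d3, a gene induced by glucocorticoids, was at 113 and 109 CPM in control, 118 and 136 in naris occluded and 222 and 189 in trained libraries. Gpt2, the mitochondrial alanine aminotransferase, was at 132 and 141, 157 and 160, and 243 and 229 CPM. In both genes the trained libraries lay above the other 4, at log2 fold changes of 0.87 ± 0.14 and 0.77 ± 0.12 (edgeR, both adjusted p = 0.00112). Without trained replicate 1 these were 0.75 and 0.73 and still passed, while without control replicate 1 the adjusted p was 0.187 and 0.343 and without control replicate 2 it was 0.0615 for both. Ltbp2, which codes for a protein that binds latent TGF-beta complexes in the matrix, was at 34.8 and 53.2 CPM in control, 59.6 and 61.6 in naris occluded and 118 and 78.4 in trained libraries (1.17 ± 0.21, edgeR adjusted p = 0.00391). It was not called without control replicate 1 (0.764) or trained replicate 1 (0.387). The deubiquitinase gene Usp2, the kinase gene Aatk, Fam101a and Gm10638 were the others among the 10 largest increases.

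Of the 7 lower genes Cirbp, a cold-inducible RNA-binding protein, was at 329 and 277 CPM in control, 306 and 274 in naris occluded and 158 and 190 in trained libraries. Both trained libraries lay below the other 4. The log2 fold change was -0.82 ± 0.13 (edgeR adjusted p = 0.00112), and only without control replicate 1 was it not called (adjusted p = 0.298). The nuclear RNA Malat1 fell by 0.32 on the log2 scale, from 85017 and 91399 to 71611 and 71568 CPM. C2cd4b, at 16.7 and 16.5 CPM in control and 0.774 and 6.17 in trained libraries, and Gm13499 were the other genes that are not from red blood cells. The hemoglobin genes Hba-a1, Hba-a2 and Hbb-bs made up the rest. Hbb-bs was at 220 and 47.7 CPM in control, 133 and 256 in naris occluded and 29.4 and 44.1 in trained libraries, so that control replicate 2 lay close to the trained libraries. The summed red blood cell markers ran from 44.9 to 540 CPM. Without control replicate 1 Hba-a1 turned to 0.13 on the log2 scale and Hbb-bs was at -0.42, not called. In microglia of the same libraries Hba-a2 was at 445, 9.22, 10.6, 665, 3.57 and 6.54 CPM, against 119, 11.0, 27.3, 97.5, 3.10 and 3.53 in OEC3.

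**Figure D4:**
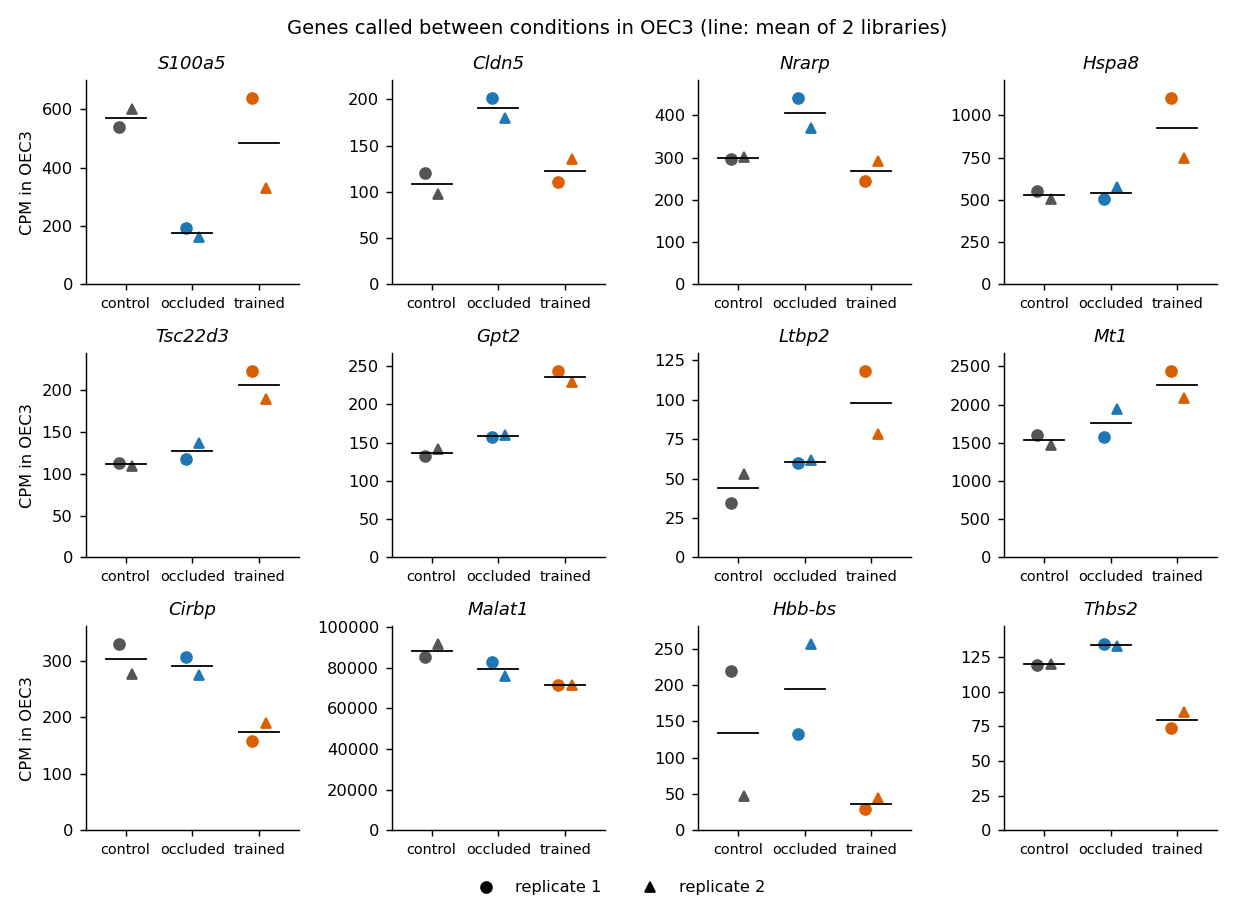
Level in OEC3 in CPM (vertical axis, linear from 0) of 12 genes called in at least 1 comparison of conditions, with circles for replicate 1, triangles for replicate 2 and a line at the mean of the 2 libraries. S100a5 was low (193 and 162 CPM) and Cldn5 high (201 and 180 CPM) in both naris occluded libraries, Hspa8, Tsc22d3, Gpt2, Ltbp2 and Mt1 were high and Cirbp low in both trained libraries, and Hbb-bs differed as much within control as between conditions.

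The genes called with training were examined in other cells of the same libraries. In the other OEC clusters together the means of all 24 genes differed in the same direction, and for 22 of the 24 the trained and control libraries did not overlap, against 22.8% of all tested genes in the direction of their own OEC3 means. In microglia this held for 14 of the 24 (19.2% of all tested genes), in endothelial cells for 11 (21.2%) and in Astro1 for 13 (19.5%). Hspa8 had a ratio of trained to control means of 1.74 in OEC3, 1.82 in the other OEC clusters, 1.75 in microglia, 2.07 in endothelial cells and 1.17 in Astro1. Tsc22d3 had ratios of 1.86, 1.69, 1.9, 3.62 and 1.78, and Cirbp of 0.574, 0.563, 0.66, 0.574 and 0.75, in the same order. Gpt2 had ratios of 1.74 in OEC3, 1.36 in the other OEC clusters together (1.73 in OEC2 and 1.75 in OEC4), 0.755 in microglia, 0.939 in endothelial cells and 1.26 in Astro1, with control means of 15.1, 17.9 and 45.9 CPM in the last 3. The training effect differed between OEC3 and the other OEC clusters in 7 of 11048 genes (0.0634%), of which Ltbp2 and Hba-a2 were among the 24. With replicate as a block 3 genes were called, and neither Ltbp2 (adjusted p = 0.115) nor Hba-a2 (0.201) was among them. For Hspa8 the difference was -0.1 ± 0.09, for Tsc22d3 0.1 ± 0.15, for Cirbp 0 ± 0.12 and for Gpt2 0.32 ± 0.13 on the log2 scale (edgeR adjusted p of 0.972, 0.992, 0.999 and 0.947).

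**Figure D5:**
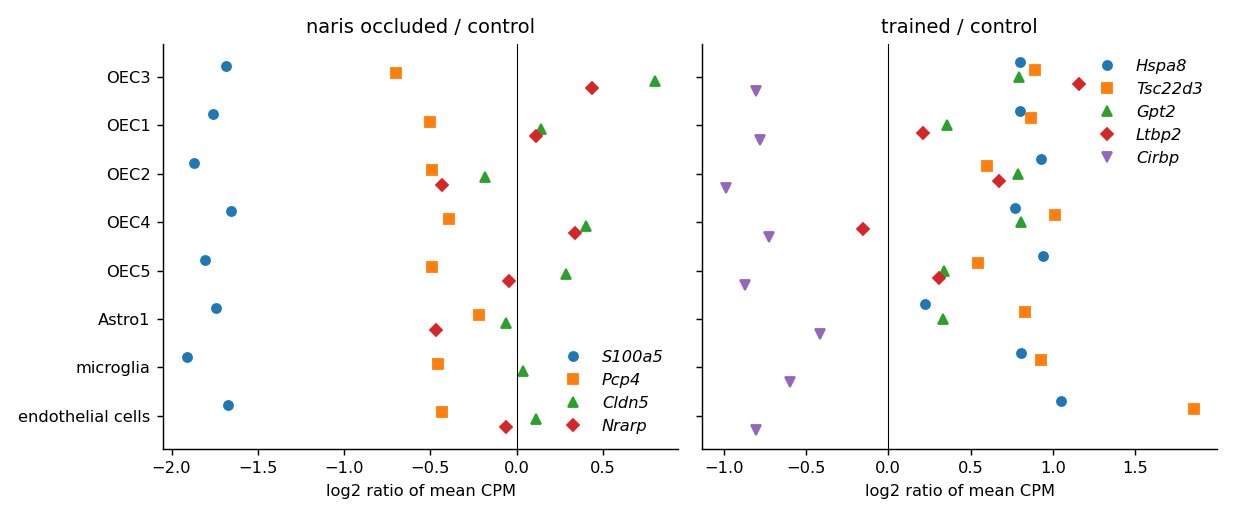
Log2 ratio of the mean CPM of 2 naris occluded (left) or 2 trained (right) libraries to that of 2 control libraries, by cell type, for genes with at least 30 CPM in control. S100a5 lay far below 0 in every type (0.312 as a linear ratio in OEC3 and 0.266 in microglia), Cldn5 was farthest above 0 in OEC3 (1.74), and in OEC3 Hspa8 and Tsc22d3 lay above 0 (1.74 and 1.86) and Cirbp below (0.574).

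Trained and naris occluded libraries differed in 30 genes (0.309%), 18 higher (0.185%) and 12 lower (0.124%) after training, with 789 at an unadjusted p under 0.05 and 0 called by DESeq2 (178 unadjusted). The number was 8 without trained replicate 1, 16 without control replicate 2, 53 without naris occluded replicate 2 and 92 without trained replicate 2, and 42 with replicate as a block, 30 of them shared. These libraries are those of the 2 comparisons above, so that S100a5 (1.45 ± 0.17, edgeR adjusted p = 4.45e-06), Cldn5 (-0.64 ± 0.14, 0.0211), Hspa8, Tsc22d3, Gpt2, Cirbp and the hemoglobin genes are the same measurements again. Pcp4 (378 and 316, 229 and 199, and 512 and 301 CPM), Syn1, Ddn and Ncdn, all known from neurons, were also higher, and they were lowest in both occluded libraries. The summed level of 8 neuron markers in OEC3 was 524 and 448 CPM in control, 385 and 335 in naris occluded and 555 and 390 in trained libraries, and its part in these differences was not tested. Of these 8 markers 0 were called in this comparison by edgeR or DESeq2, with 4 at an unadjusted p under 0.05 in edgeR and a median log2 fold change of 0.46. Chordc1 and the chaperone gene Hspa5 rose as well. For all 30 genes the groups did not overlap in OEC3 (36.2% of all tested genes). The same held, in the same direction, for 22 of the 30 in the other OEC clusters together (25.4%), 16 in microglia (20.8%), 14 in endothelial cells (23.4%) and 16 in Astro1 (20.7%).

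Lower after training than after occlusion were, beyond these, the matrix protein gene Thbs2, the heparan sulfate enzyme gene Hs3st1, Rin2, Rnaset2a, the neurotensin receptor gene Ntsr2 and Nrarp, a target and feedback inhibitor of Notch signalling. Thbs2 was at 119 and 120 CPM in control, 134 and 133 in naris occluded and 73.5 and 85.5 in trained libraries, so that both trained libraries lay below all others (-0.75 ± 0.15, edgeR adjusted p = 0.0108). Nrarp was at 296 and 302, 440 and 369, and 244 and 293 CPM, highest in both occluded libraries (-0.60 ± 0.13, edgeR adjusted p = 0.0211). Without trained replicate 1 Thbs2 was not called (adjusted p = 0.322).

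Most lists held no gene called between conditions. Among 18 tested proteases and inhibitors 1 was called higher with training, against 0.175% of all tested genes, namely Htra1, a secreted serine protease, at 278 and 300 CPM in control, 311 and 326 in naris occluded and 450 and 410 in trained libraries (0.55 ± 0.12 against control, edgeR adjusted p = 0.0351), both trained libraries lying above all others. Ntsr2, an astrocyte marker that was also highest in OEC3 of the OEC clusters in all libraries, was lower after training than after occlusion (-0.63 ± 0.15, edgeR adjusted p = 0.039). In the lists of OEC identity, insulin-like growth factor, Wnt, glutathione and redox, lipid and matrix genes 0 genes passed in any of the 3 comparisons by edgeR or DESeq2, with at most 4 of a list at an unadjusted p under 0.05 in edgeR. Aqp1 was at 728 and 706 CPM in control, 740 and 735 in naris occluded and 917 and 874 in trained libraries, and although the trained libraries lay above all others the log2 fold change of 0.30 ± 0.12 did not pass (edgeR adjusted p = 0.654). Among the 16 cholesterol genes the median log2 fold change of trained against naris occluded was -0.36, against 0.01 over all genes, with 0 called and 5 at an unadjusted p under 0.05.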

How the data were processed

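The deposited table held UMI counts of 18560 genes in 52549 cell barcodes, made by the authors with Cell Ranger 2.0.0 on mm10 per the labels (10x Chromium 3' v2 kit) and clustered by them in Seurat 2.2.1. The deposited annotation gave a cluster for 51426 of them; its fraction of mitochondrial UMIs per cell was also computed by the authors. By the methods, doublets were taken out and similar clusters merged before deposit, and no doublet caller was run here. Libraries were taken from the annotation's library column, because the starts of the cell names are interchanged between the trained libraries.

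Counts were summed per library over OEC3 cells and tested in edgeR 4.0.16 (R 4.3.3; TMM factors, filterByExpr, quasi-likelihood, all 6 libraries in 1 fit), with DESeq2 1.42.0 as an alternative. The difference between OEC3 and the other OEC clusters was an interaction with library as a term. Standard errors are the log2 fold change divided by the root of F. Replicate numbers paired the libraries, with correlations of deviations of 0.485, 0.5 and 0.397 over 2817 genes; Xist and Ddx3y differed by replicate number, and the test without a block was kept as the main one. The p-values measure the spread between pools.

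Named genes were list members, the 20 highest and 10 lowest genes by ratio, up to 10 called genes per direction and up to 5 interactions. Dnaja1, Ncdn, Il13ra2, Egr1 and the hemoglobin interaction fell outside this rule and were chosen after their values were seen. Members and lists were chosen with earlier results of these data and the study's list of cluster genes known. The scripts were first tested on simulated data. Shares of cells with a UMI are set beside those of microglia. Python 3.11.15, numpy 2.4.6, scipy 1.17.1, pandas 2.3.3 and matplotlib 3.10.9 were used. Alternatives changed the scaling, filter, tool, cells, denominator, replicate block and libraries; 2 further sets of comparison clusters for the interaction were chosen after seeing the data.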

Additional observations from a re-analysis of the deposited data

Results flagged for a closer look

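For 5 genes the effect of naris occlusion, and for 7 that of training, differed between OEC3 and the other OEC clusters together by the edgeR interaction test (0.0453% and 0.0634% of 11048 genes, with 601 and 515 at an unadjusted p under 0.05). All values are log2 differences, with a positive sign where OEC3 moved up relative to the others. The others were summed, and their makeup differed between libraries, as given above.

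The interferon-stimulated genes Ifit3 and Isg15 differed in both comparisons. Ifit3 gave 1.07 ± 0.18 with occlusion (adjusted p = 6.9e-05) and 1.18 ± 0.20 with training (0.000261), and Isg15 gave 0.66 ± 0.13 (0.00993) and 0.70 ± 0.15 (0.00853). In OEC3 itself Ifit3 was at 93.9 and 48.6 CPM in control, 75.2 and 87.3 in naris occluded and 61.9 and 64.3 in trained libraries, and the groups overlapped. In the other OEC clusters it was at 306 and 168, 83.9 and 178, and 66.4 and 119 CPM. The highest levels were those of OEC5 in control replicate 1, 663 CPM for Ifit3 and 1005 CPM for Isg15. Both genes share the control libraries in the 2 comparisons. Isg15 was not called without control replicate 1 (adjusted p of 0.867 and 0.973), naris occluded replicate 1 (0.135, occlusion) or trained replicate 1 (0.566, training). Ifit3 was called without control replicate 1 (0.0109 and 0.0132). Ifit3 was not called without naris occluded replicate 1 (0.233) for occlusion or trained replicate 1 (0.412) for training.

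With occlusion, Cldn5 gave 0.58 ± 0.12 (edgeR adjusted p = 0.0134), as described above, and the Notch target Nrarp 0.46 ± 0.10 (0.0307). Nrarp was at 296 and 302 CPM in control and 440 and 369 in naris occluded libraries of OEC3, which did not overlap. In the sum of the other OEC clusters it was at 292 and 307 against 326 and 263 CPM, which overlapped. By single cluster the occluded to control ratio of Nrarp was 1.35 in OEC3, 1.08 in OEC1, 0.741 in OEC2, 1.26 in OEC4 and 0.971 in OEC5. In OEC4 the groups did not overlap either (164 and 156 CPM in control, 209 and 195 in naris occluded libraries). In OEC2 they did not overlap in the opposite direction (290 and 283 against 259 and 164 CPM). The adjusted p of Nrarp was 0.135 to 0.313 without any 1 of the control or occluded libraries. The chemokine gene Ccl5 gave -4.19 ± 0.92 (0.0249), but was at 5.30 CPM or less in OEC3 and high only in naris occluded replicate 1 of the others (33.8 CPM). Its adjusted p was 0.396 and 0.181 without control replicate 1 and 2.

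With training, the matrix gene Ltbp2 gave 1.01 ± 0.21 (edgeR adjusted p = 0.00841). By single cluster the trained to control ratio of Ltbp2 was 1.16 in OEC1, 1.6 in OEC2, 0.899 in OEC4 and 1.24 in OEC5. In OEC2 the groups did not overlap (73.8 and 56.6 CPM in control, 97.5 and 111 in trained libraries). Its trained to control ratio was 2.23 in OEC3 and 1.13 in the others, and it was not called without control replicate 1 (0.992) or trained replicate 1 (0.954). The immediate early genes Fos, Junb and Egr1 gave -1.06 ± 0.19 (0.000432), -1.41 ± 0.26 (0.000607) and -1.20 ± 0.26 (0.0157). Without OEC2, where these genes are high, the differences were -0.50, -0.54 and -0.92 (adjusted p of 0.948, 0.948 and 0.733). Against OEC5 alone they were -1.25, -1.13 and -1.30 (0.316, 0.765 and 0.765). Without control replicate 1 it was 0.956, 0.294 and 0.992, and for Egr1 it was 0.148 without trained replicate 2. The hemoglobin gene Hba-a2 gave -2.77 ± 0.63 (0.0264), and it was at 119 and 11.0 CPM in the control libraries of OEC3. Its adjusted p was 0.992 without control replicate 1, 0.132 without trained replicate 1 and 0.148 without trained replicate 2. Egr1 and Hba-a2 lie beyond the 5 named per test and were chosen after their values were seen. With replicate as a block the adjusted p rose above the threshold for Isg15 (0.0521 with occlusion, 0.0746 with training), Nrarp (0.146), Ccl5 (0.45), Ltbp2 (0.115), Egr1 (0.11) and Hba-a2 (0.201).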

How the results depend on the processing

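Over 51 named gene results and 663 recomputed values, 661 kept their direction and 175 no longer passed. The 2 that turned were Hba-a1 with training without control replicate 1 (0.13, and -4.45 without control replicate 2) and the Ccl5 interaction without naris occluded replicate 1 (0.12, and -5.75 without naris occluded replicate 2). With replicate as a block the interactions fell to 3 called genes each, and Malat1, Ccl5, Nrarp, Egr1, Hba-a2 and Ltbp2 (interactions for the last 5) and Isg15 in both interactions were lost; the counts of 3, 24 and 42 called genes for occlusion, training and trained against occluded stand against 2, 24 and 30.

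DESeq2 called 0, 1 and 0 genes, with 57, 113 and 178 of 9711 at an unadjusted p under 0.05, so that its missing calls decide little. For trained against naris occluded no filter gave 62 genes and the libraries of the 2 groups alone 12. Leaving out 1 library gave 1 to 7 genes for occlusion (6 without control replicate 1, 1 without control replicate 2, 5 and 7 without naris occluded replicate 1 and 2), 1 to 33 for training and 8 to 92 for trained against occluded. Occlusion interactions numbered 3 to 10 without 1 library (3 without control replicate 1, 9 and 10 without trained replicate 1 and 2) and 1 with OEC1, OEC4 and OEC5 as the others. Training interactions numbered 2 to 9 (2 without control replicate 1), 4 in cells with at least 1000 UMIs and 3 with OEC1, OEC4 and OEC5. Both sets of other clusters were chosen after seeing the data.

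Genes higher in OEC3 numbered 2 to 4 without 1 library (4 without control replicate 2) and 11 by the mean alone. Genes lower numbered 5 to 7 without 1 library, 3 in cells with at least 1000 UMIs, 8 without OEC4, 9 at 20 CPM and 11 by the mean alone. Without 1 library the cell number differences were 0.27 to 0.41 for occlusion, -0.11 to 0.21 for training (-0.01 without control replicate 1, -0.11 without trained replicate 2) and -0.45 to -0.13 for trained against occluded. Among OEC cells alone they were 0.15 for occlusion, 0.16 for training and 0.01 for trained against occluded. The cause of these shifts was not tested beyond the smaller number of libraries, genes or cells in each.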
